A study of Mus musculus with 10 samples.

Results

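Complex I, or NADH:ubiquinone oxidoreductase, is the largest enzyme of the mitochondrial respiratory chain. Its genes were examined here in mouse cardiomyocytes that expressed dnMKL1, a mutant of the SRF coactivator MKL1 (MRTF-A) that blocks the normal protein in a dominant-negative way. The genes were taken by name, as all symbols that begin with Nduf and have a base mean above 0 in the authors' deposited table. Of 42 such symbols 41 qualified, out of 17371 genes above 0 and 23337 genes in all. They comprised 37 subunit symbols (Ndufa, Ndufb, Ndufc, Ndufs and Ndufv) and 4 assembly factors (Ndufaf). The remaining symbol, Ndufs5, a subunit of the membrane arm, was listed at 0 in the authors' deposited table and has no further value.

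All mice were wild-type. On postnatal day 1 they received 5e+08 viral genomes per gram of AAV9 that carried either dnMKL1 with GFP (AAV9-cTNT-dnMKL1-GFP, 5 libraries) or GFP alone (AAV9-cTNT-GFP, 5 libraries) behind cTNT, the cardiac troponin T promoter, which drives expression in cardiomyocytes. Cells were collected on postnatal day 14 by collagenase perfusion of the heart and fluorescence-activated sorting, and their RNA was sequenced. Both groups thus carried the virus and GFP, and endogenous Mkl1 was not deleted in either. The labels name 5 biological replicates per group and give no batch.

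The enzyme passes electrons from NADH to ubiquinone and pumps protons across the inner mitochondrial membrane. It is built from a peripheral arm in the matrix, which holds the NADH-oxidising N module and the ubiquinone-reducing Q module, and from a proton-pumping membrane arm, the P module. The P module is divided into parts named after the subunits ND1, ND2, ND4 and ND5, which are encoded in mitochondrial DNA. Heart muscle is rich in mitochondria, and respiratory chain genes are known to rise as cardiomyocytes mature after birth. The 7 mitochondrially encoded subunits and 6 other mitochondrially encoded proteins could not be matched to the authors' deposited table. All values thus concern the nuclear genes, and totals of normalized counts may lack the mitochondrial ones.

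Depth and direction were checked first. Size factors recovered from genes with 1 read in 1 library ran from 0.660 to 1.58, and estimated library totals ran from 8803028 to 17228616 counts, with both groups spanning that range. Mkl1, from which the vector's insert derives, stood at a log2 fold change of 9.80 (SE 0.15) by the authors' deposited table, and positive values were read as higher in dnMKL1 libraries. Cardiomyocyte markers were by far the most abundant of the marker lists, with 8 genes that took 11.5% of all normalized counts for GFP and 8.05% for dnMKL1.

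The letters in the promoters of the members are shown first, as a description. RefSeq promoter windows on GRCm38.p6 (250 bases before and 50 after the transcription start, the build equivalent to the mm10 named in the submitters' processing notes) were matched to 36 of the 41 genes, with 38 promoters in all. A part of the binding motif of NRF1, a factor known for its role at respiratory chain genes, was searched on both strands as GCGCATGC. It was in 4 of the 38 promoters (10.5%), against 2.71% of all 32851 promoters and 4.89% of the 12693 promoters of tested genes. Each line below gives 30 bases on the strand of the gene, with the letters matched in capitals. Where the match is on the other strand it reads GCATGCGC.

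Ndufa8, chr2:36049328-36049357, minus strand: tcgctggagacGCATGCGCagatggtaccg
Ndufa6, chr15:82354356-82354385, minus strand: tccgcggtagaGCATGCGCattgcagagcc
Ndufa11, chr17:56717691-56717720, plus strand: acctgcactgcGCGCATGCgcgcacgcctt
Ndufaf4, chr4:24897959-24897988, plus strand: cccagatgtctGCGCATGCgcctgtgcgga

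These matches began 8, 83, 60 and 113 bases before the start for Ndufa8, Ndufa6, Ndufa11 and Ndufaf4. In Ndufa11 and Ndufaf4 the letters overlapped a match on the other strand, and Ndufaf4 held a further one at base 2 after the start. The motif of YY1, searched as AAGATGGCG, was in 5 of the 38 promoters (13.2%), against 1.40% of all promoters and 2.65% of those of tested genes. All 5 matches lay downstream of the transcription start, on the strand of the gene. The letters searched contain ATG, which is also the start codon of translation, and whether the matches lie there was not examined.

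Ndufs7, chr10:80249462-80249491, plus strand: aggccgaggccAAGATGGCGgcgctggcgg
Ndufa9, chr6:126849097-126849126, minus strand: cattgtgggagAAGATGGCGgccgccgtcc
Ndufs4, chr13:114388045-114388074, minus strand: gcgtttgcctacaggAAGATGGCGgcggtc
Ndufs6, chr13:73328433-73328462, minus strand: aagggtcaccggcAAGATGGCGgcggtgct
Ndufc1, chr3:51408915-51408944, minus strand: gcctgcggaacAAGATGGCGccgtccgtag

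The first matched base was base 25 after the start in Ndufs7, 30 in Ndufa9, 36 in Ndufs4, 34 in Ndufs6 and 23 in Ndufc1. An ETS motif, CCGGAAGT, was in 1 promoter (Ndufs3, 2.63%), against 3.89% of all promoters and 7.22% of those of tested genes. The oestrogen-related receptor motif CAAGGTCA was in 0 of the 38, against 1.56% of all and 1.09% of tested genes' promoters. The CArG box, to which SRF, the partner of MKL1, binds, was also in 0 of the 38, against 1.63% of all and 1.39% of tested genes' promoters. A match is a run of letters in this window and not a shown binding site, and 0 matches say only that these letters are not in this window.

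Transcripts of complex I fell almost as a block in dnMKL1 cardiomyocytes. Of the 41 genes 39 were lower and 0 higher at a Benjamini-Hochberg adjusted Wald p under 0.05, as adjusted over all 14056 tested genes in the authors' deposited table. Among all tested genes 17.4% were lower and 16.6% higher by the same rule. All 41 had an adjusted p-value, so that no member was lost to a filter on low values. The median log2 fold change over the 41 was -0.67, a level 37.1% below GFP, while over all tested genes it was 0.021. Ndufa11 and Ndufa4l2 did not pass the test.

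The groups were compared on the authors' scaling, and the size of the fall depended on it. Group means implied by the base mean and the fold change summed over all genes to 13330302 normalized counts for GFP and 10915829 for dnMKL1. Scaling both groups to the same total adds 0.29 to every log2 fold change, which left 24 members lower and 0 higher, with a median of -0.38. Values between -0.29 and 0 turn positive under it, which among the members held for Ndufa11 (0.0012). The same holds for every gene, list median or ratio of sums in that range given further on, such as the median of the ribosomal proteins, the summed mural and macrophage markers, Nubpl, Dmac1, Myl2, Pln and Mybpc3. Under that scaling 927 tested genes (6.60%) were lower and 5685 higher. In sorted cells read in bulk, fewer cells of a type and less RNA per cell cannot be told apart.

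As a share of all normalized counts, the 35 symbols placed in a complex I module made up 1.82% in GFP and 1.34% in dnMKL1. Their summed implied means went from 243275 to 146807 normalized counts, 39.7% lower. Each of the 35 had a negative fold change with a 95% interval wholly below 0, and 34 passed the adjusted threshold.

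**Figure D1:**
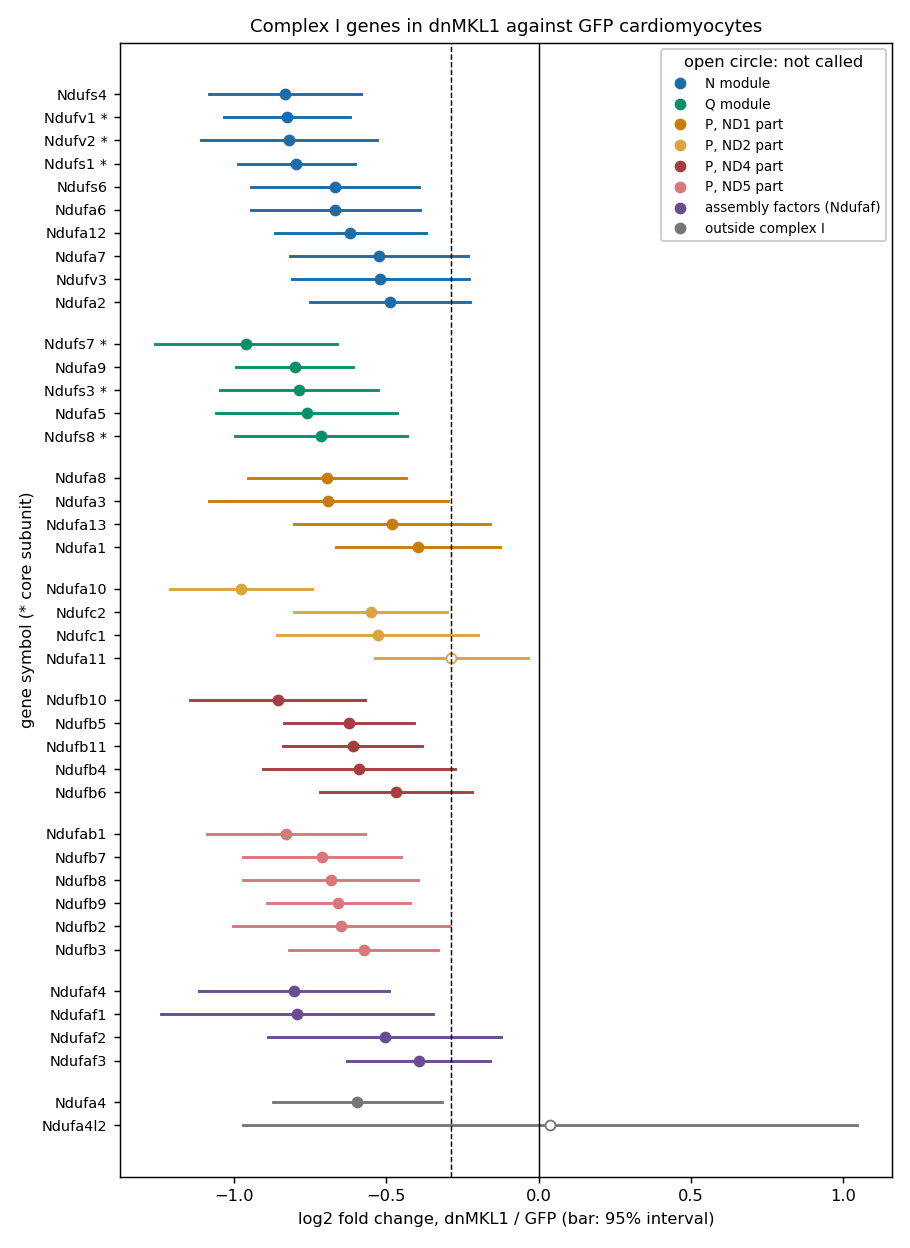
Log2 fold change of 40 of the 41 genes, each with its 95% interval (from the SE), grouped by module, with core subunits starred and uncalled genes as open circles. The solid line marks 0 on the authors' scaling and the dashed line marks 0 after total-count scaling, at -0.29. All points but Ndufa4l2 lie left of the solid line.

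The core subunits, which are conserved from bacteria and carry the redox groups and the ubiquinone site, were all lower. The 7 nuclear-encoded ones had a median log2 fold change of -0.82, from -0.96 (Ndufs7) to -0.72 (Ndufs8), and summed to 96463 normalized counts in GFP and 54442 in dnMKL1. The 28 supernumerary subunits had a median of -0.64, with 27 lower. All 7 core subunits lay at or below the median of the 35, and 6 of the 28 supernumerary ones were as low as the highest core subunit or lower. No test was made between core and supernumerary subunits, since genes are not replicates of a condition.

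In the N module, where NADH is oxidised, all 10 genes were lower, with a median of -0.67. Ndufv1, which binds NADH and the flavin, had implied means of 22220 normalized counts in GFP and 12526 in dnMKL1. The authors' deposited table put its log2 fold change at -0.83 (SE 0.11, Benjamini-Hochberg adjusted Wald p = 2.1e-13). The means of Ndufs1, an iron-sulphur protein and the most abundant member by base mean, were 23199 in GFP and 13355 in dnMKL1. For it the authors' deposited table gave -0.80 (SE 0.10, adjusted Wald p = 2.7e-14). Ndufv2, an iron-sulphur protein beside Ndufv1, and Ndufs4, an accessory subunit that helps to hold the N module on the enzyme, were at -0.82 (SE 0.15) and -0.83 (SE 0.13) in the authors' deposited table. The smallest falls of the module were those of Ndufa2 (-0.49, SE 0.13), Ndufv3 (-0.52, SE 0.15) and Ndufa7 (-0.52, SE 0.15), 3 small accessory subunits, in the authors' deposited table.

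The Q module, which hands electrons to ubiquinone, had the lowest median of the 6 groups of subunits, -0.79, and all 6 genes were lower. Ndufs7, which holds the last iron-sulphur cluster before ubiquinone, had implied means of 7575 normalized counts in GFP and 3893 in dnMKL1, 48.6% lower. This was a log2 fold change of -0.96 by the authors' deposited table (SE 0.15, Benjamini-Hochberg adjusted Wald p = 6.2e-09). A further 4 genes were close together, at -0.80 for Ndufa9, which binds NADPH, -0.79 for Ndufs3, -0.76 for Ndufa5 and -0.72 for Ndufs8, an iron-sulphur protein, in the authors' deposited table. Of all 41 members, Ndufa9 had the lowest adjusted p by the authors' deposited table (Benjamini-Hochberg adjusted Wald p = 1.6e-14, SE 0.10).

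In the membrane arm 18 of 19 genes were lower, with a median of -0.62. This arm held the largest as well as the smallest change among the subunits, both of them in the ND2 part. Ndufa10 (chr1:92439486-92473825), a subunit with a fold like that of nucleoside kinases, had implied means of 14209 and 7220 normalized counts, 49.2% lower in dnMKL1. In the authors' deposited table this gene was at -0.98 on the log2 scale (SE 0.12, Benjamini-Hochberg adjusted Wald p = 1.8e-14). Ndufa11 (chr17:56717762-56724248), a membrane subunit, had means of 5697 and 4669, 18.0% lower. The authors' deposited table gave -0.29 (SE 0.13) for Ndufa11, with an unadjusted p of 0.025 and a Benjamini-Hochberg adjusted Wald p of 0.069, so that it missed the threshold. The 95% interval of its log2 fold change ran from -0.54 to -0.036, and that of Ndufa10 from -1.21 to -0.74. These intervals do not overlap, but the difference itself was not tested because the covariance of the 2 genes over libraries is not known.

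The ND1 part, next to the ubiquinone site, had a median of -0.59 over 4 genes, all lower. Ndufa1, encoded on the X chromosome, fell least there, at -0.40 (SE 0.14) in the authors' deposited table, and Ndufa13, also known as GRIM-19, was at -0.48 (SE 0.16). Ndufa8 was at -0.70 (SE 0.13) and Ndufa3 at -0.69 (SE 0.20) in the authors' deposited table. In the ND2 part Ndufc1 and Ndufc2 were lower too, at -0.53 (SE 0.17) and -0.55 (SE 0.13) in the authors' deposited table.

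At the far end of the membrane arm all 11 genes of the ND4 and ND5 parts that could be matched to the table were lower, with medians of -0.61 over 5 genes and -0.67 over 6. Ndufb1, a further subunit of the ND4 part, is not analysed here. Ndufb10 had the largest fall of the ND4 part, -0.86 (SE 0.15) in the authors' deposited table, with implied means of 8527 and 4707 normalized counts. Ndufb6, the smallest, was at -0.47 (SE 0.13) in the authors' deposited table. Ndufab1, the mitochondrial acyl carrier protein, which also serves fatty acid synthesis, led the ND5 part at -0.83 (SE 0.13) in the authors' deposited table. Ndufb7, Ndufb8, Ndufb9, Ndufb2 and Ndufb3 followed between -0.71 and -0.57. Apart from Ndufb4 and Ndufab1, with base means of 421 and 761, all ND4 and ND5 members had base means above 1000.

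The spread among the subunits was close in size to the error of a single gene. Over the 35 the SD of the log2 fold changes was 0.16, and the median SE of a single gene was 0.13. The 95% interval of 32 of the 35 held the median of the list. Ndufa10 lay wholly below that median, and Ndufa1 and Ndufa11 wholly above it. The SE includes variation between libraries that the genes may share, so that differences among subunits were not tested by this. Across the 35, larger base means went with larger falls (Pearson r = -0.39, Spearman rho = -0.47), and so did longer transcripts (r = -0.49, rho = -0.50), while GC content of the transcript showed little relation (r = 0.054, rho = 0.017). These are descriptions across genes of the same libraries, which are not independent.

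Levels can be compared between genes only per length. Per 1000 bases of the principal transcript (GENCODE vM21), the 35 ran from 219 normalized counts for Ndufab1 to 17234 for Ndufb8, with a median of 4917. Most subunits enter each enzyme as a single copy, while their transcripts stood at quite different levels. The annotated transcript of Ndufab1 is 3479 bases long and that of Ndufb2 4371, so that their values per length rest on that choice. Ndufab1 and Ndufb4 also have copies of the same name elsewhere, so that their reads could be shared or lost.

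**Figure D2:**
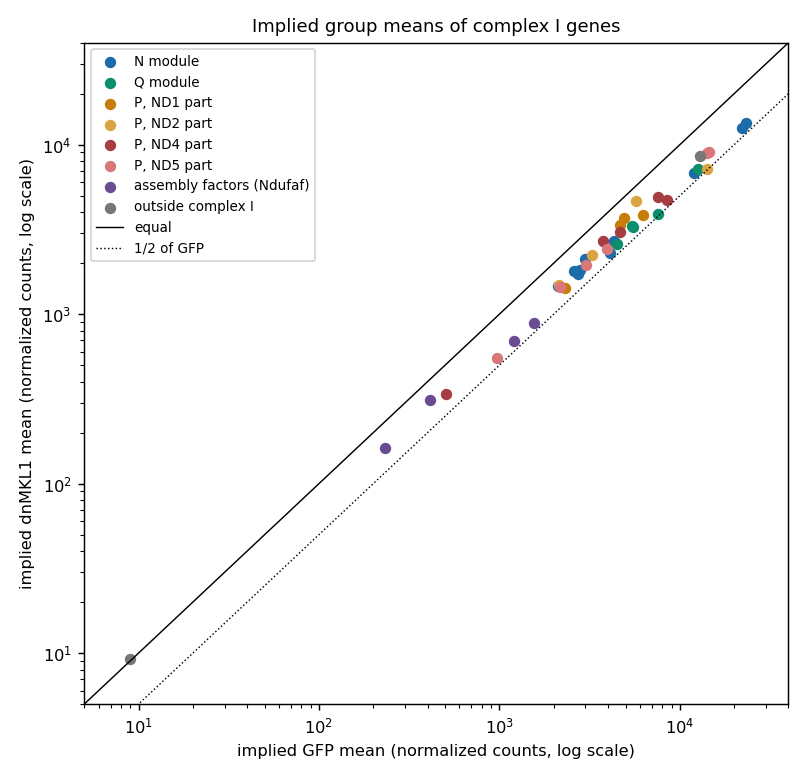
Implied mean of 40 of the 41 genes in dnMKL1 (vertical, normalized counts, log scale) against GFP (horizontal, normalized counts, log scale), coloured by module. Apart from Ndufa4l2, near 9 normalized counts in both groups, the points lie between the line of equal means and the dotted line at 1/2 of the GFP mean.

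The assembly factors, which help to build the enzyme and are no part of its final form, were lower as well. All 4 Ndufaf symbols in the table passed the test, with a median of -0.65. Ndufaf1, which acts on the membrane arm, had implied means of 1209 normalized counts in GFP and 697 in dnMKL1, and -0.79 on the log2 scale (SE 0.23, Benjamini-Hochberg adjusted Wald p = 0.0025) by the authors' deposited table. Ndufaf3 and Ndufaf4, which work together on the Q module, were at -0.39 (SE 0.12) and -0.80 (SE 0.16) in the authors' deposited table, with intervals from -0.63 to -0.16 and from -1.12 to -0.49. Ndufaf2, which acts late in assembly, had the lowest level of the 4, with means of 232 and 163, and was at -0.51 (SE 0.20, adjusted Wald p = 0.031) in the authors' deposited table.

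The table lists 4 more Ndufaf genes under older symbols, found through RefSeq synonyms, and all 4 were lower. The authors' deposited table gave -0.50 (SE 0.15) for Ndufaf5 (2310003L22Rik), which modifies Ndufs7, and -0.34 (SE 0.14) for its partner Ndufaf8 (1810043H04Rik). It gave -0.90 (SE 0.15) for Ndufaf6 (2310030N02Rik) and -0.40 (SE 0.083) for Ndufaf7 (2410091C18Rik), a methyltransferase. With them the 8 factors had a median of -0.50. Of 12 assembly factors with other names 11 were in the table, of which 9 were lower and 0 higher, with a median of -0.65. Foxred1 was lowest, at -0.97 (SE 0.11) in the authors' deposited table. Among partners of Ndufaf1 in membrane arm assembly, Acad9 was at -0.51, Ecsit at -0.69 and Tmem126b at -0.45. Timmdc1 (4930455C21Rik) and Tmem186, also on this list, were at -0.67 and -0.71. Nubpl, which delivers iron-sulphur clusters, and Dmac1 (3110001D03Rik) did not pass, at -0.13 (SE 0.14) and -0.10 (SE 0.12) in the authors' deposited table.

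A pair of Nduf symbols name proteins that are now placed outside complex I. Ndufa4, a subunit of cytochrome c oxidase, was lower, with implied means of 12893 and 8535 normalized counts and a log2 fold change of -0.60 (SE 0.14, Benjamini-Hochberg adjusted Wald p = 1.9e-04) in the authors' deposited table. Its paralogue Ndufa4l2, known as a hypoxia-induced gene, had implied means of 8.96 and 9.20. The authors' deposited table gave 0.038 (SE 0.51) for Ndufa4l2, and the 95% interval from -0.97 to 1.05 includes the change of Ndufa4, so that a difference between the pair was not detectable at this depth.

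Abundant genes were lower in general in these libraries, and the members are abundant, so they were set beside other genes of like base mean. Between 1000 and 10000 normalized counts, 27 of 28 members were lower (96.4%), with a median log2 fold change of -0.66, against 39.3% lower and a median of -0.13 for the 1958 other tested genes there. At 10000 or more, 7 of 7 members were lower, with a median of -0.80, against 69.2% and -0.57 for 133 other genes. Under 1000 it was 5 of 6 members with a median of -0.55, against 13.0% and 0.053 for 11924 other genes. The 28 members in the middle class were also short, with a median transcript of 892 bases against 3225. When only transcripts of at most 1000 bases were kept in that class, 15 of 16 members were lower, with a median of -0.64, and 40 of the 70 other genes (57.1%), with a median of -0.33. No test was made of these differences. The other genes leave out only Nduf symbols, so they still hold genes of complexes II to V, which were mostly lower too.

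**Figure D3:**
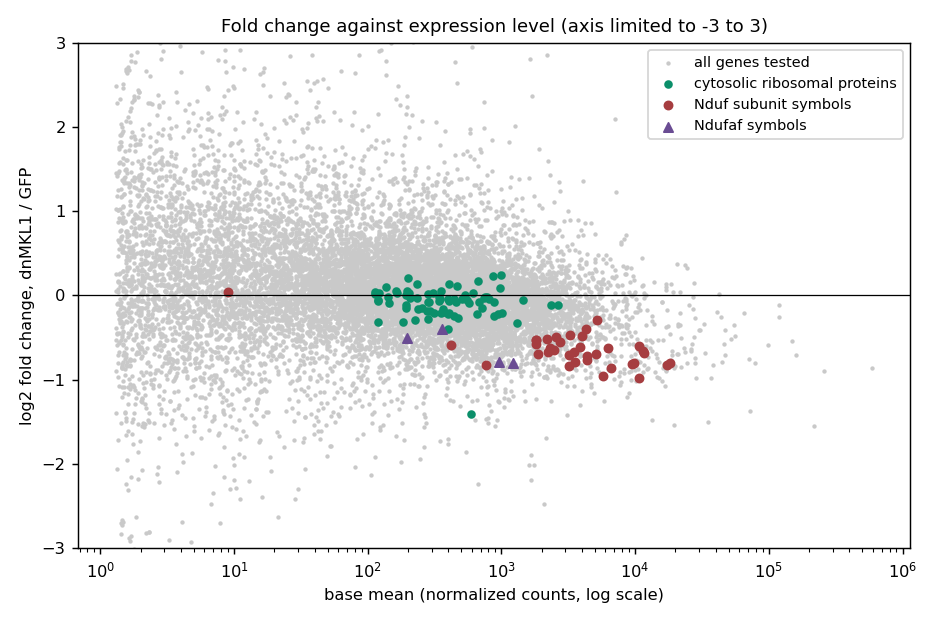
Log2 fold change against base mean (normalized counts, log scale) for the tested genes in grey, 36 of the 37 subunit symbols as red points, the 4 Ndufaf symbols as triangles and 75 cytosolic ribosomal protein genes in green. The complex I genes lie below 0 apart from Ndufa4l2 at the far left, while the ribosomal genes scatter about a median of -0.061.

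Other respiratory complexes lay at similar values. The fixed lists of nuclear genes for complexes II, III, IV and V had medians of -0.77, -0.64, -0.59 and -0.63. In them 4 of 4, 9 of 9, 9 of 10 and 14 of 15 genes were lower and 0 higher. The lists need not be complete, and that of complex IV leaves out Ndufa4. The 75 cytosolic ribosomal protein genes at a base mean of 100 or higher, which are also short, had a median of -0.061. Of them 9 were lower and 2 higher. These genes were taken by symbol, so that relatives of ribosomal protein genes are included. They were less abundant, with a median base mean of 363 normalized counts against 3505 for the members. Their farthest member, at -1.40, was Rpl3l, a muscle-specific relative of Rpl3 that was named after its value was seen.

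Cell type markers moved with the comparison in part. Of the 8 cardiomyocyte markers 5 were lower and 0 higher, with a median of -0.54. They ranged from -1.55 (SE 0.15) for Actc1 and -0.87 (SE 0.11) for Myh6 to -0.11 (SE 0.089) for Mybpc3, with Myl2 at -0.20 (SE 0.11) and Pln at -0.21 (SE 0.11), in the authors' deposited table. Of 8 endothelial markers 0 passed the test, 0 had an unadjusted p under 0.05, and their summed implied means were 2578 normalized counts in GFP and 2638 in dnMKL1. Fibroblast markers had 3 of 8 higher and 0 lower, with sums of 3539 and 4913. Mural markers had 2 of 8 higher and 1 lower, with sums of 18208 and 15872, mostly from Acta2 and Abcc9, which cardiomyocytes also express, and Cspg4 stood at 2.01 (SE 0.18) in the authors' deposited table. Macrophage markers had 1 of 7 tested higher (Cd68) and 0 lower, with sums of 147 and 133. None of the 32 markers of these other cell types was listed at 0. Their part in the fall of complex I genes was not tested.

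**Figure D4:**
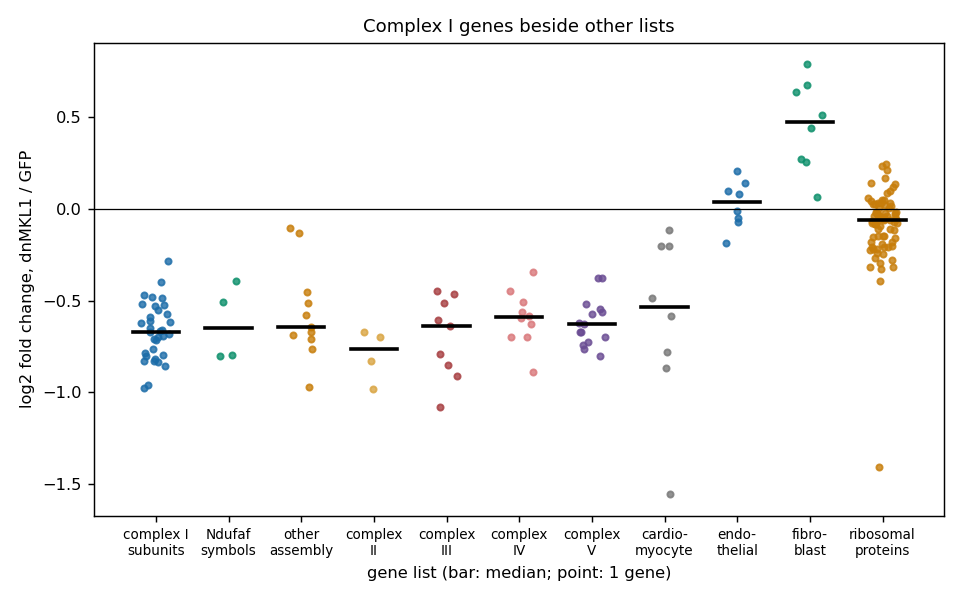
Log2 fold change of single genes (points) with the median (bar) for complex I subunits (34 of the 35 as points, the bar over all), the 4 Ndufaf symbols, 11 other assembly factors, complexes II to V, 3 marker lists and cytosolic ribosomal proteins. The complex I to V medians lie between -0.77 and -0.59, and the fibroblast median is 0.47.

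Some values rest on counting that the sources used here do not fully describe. By RefSeq coordinates 13 of the 41 genes overlap another gene, such as Ndufb11 with Rbm10 and Ndufv2 with Ankrd12, and 5 more (Ndufab1, Ndufs6, Ndufa12, Ndufb4 and Ndufa11) have a copy of the same name elsewhere, so that reads could be shared or lost. Among the other 23 members all 23 were lower, with a median of -0.67. Both members that did not pass the test were among those left out, Ndufa4l2 by an overlap and Ndufa11 by its copy. A share of all tested genes without overlaps or copies is not given here. Ndufs5, listed at 0, also has such a copy. The 41 genes lie on 16 chromosomes, and Ndufa1 and Ndufb11 are on the X chromosome.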

How the data were processed

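RNA from sorted cardiomyocytes of 5 GFP and 5 dnMKL1 libraries was sequenced by the authors. Per the submitters' processing notes, STAR 2.5.3a, featureCounts (Subread 1.5.2) and the build mm10 were used. Which annotation was counted, and whether by strand, is not given in the sources used here. One deposited table of the group comparison was used, in the layout of DESeq2 per the file headers, with no values per library. Its deposited base mean is a signal (mean normalized count over the libraries). Its deposited fold change and SE are log2 values. Its deposited Wald statistic, a score, is their ratio, and the deposited p-value and adjusted p-value follow from that. Both were recomputed, with largest gaps of 2.7e-07 and 1.4e-07.

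Calls used the authors' Benjamini-Hochberg adjusted p-value under 0.05 over 14056 genes, the lowest with a base mean of 1.31. The plan took these as the main test unless counts per library were at hand. Implied group means split the base mean by the fold change, both groups having 5 libraries. Intervals are 95% normal intervals. Size factors came from genes with 1 read in 1 library, and totals multiply each by its group's summed implied means. Gene names matched through RefSeq (8 older or alternative symbols), and a principal transcript length was found for all 41 members and for 86.7% of tested genes. Python 3.11.15, numpy 2.4.6, pandas 2.3.3 and scipy 1.17.1 were used, and the adjustment and implied means were tested on simulated data.

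The members and lists were chosen with earlier results of these data known. Every member may be named, and other genes only from the fixed lists. No set test was made. The individual values of 1 member are not reported here, while it is included in all counts and medians.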

Additional observations from a re-analysis of the deposited data

How the results depend on the processing

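No paired analysis was possible because the table holds no values per library. The planned count tests and the fits that leave out a library were therefore not run, and whether 1 library decides a value is unknown. Leaving out overlapping or copied genes, adding older symbols and scaling module medians were chosen after seeing the data. Thresholds of 0.01 and 0.1, adjustment over all p-values, base mean minimums, centring on the median gene and a minimum absolute log2 fold change of 0.5 each left between 34 and 40 members called, all lower. At the minimum of 0.5, 1246 of all tested genes (8.86%) were lower and 1489 higher. Shares of all tested genes at the thresholds of 0.01 and 0.1 are not given here. A minimum of 1 left 0 members, 0 subunits and 0 assembly factors, since no member changed that far. Of the members 40 had an unadjusted Wald p under 0.05. Total-count scaling left 24 members, 23 subunit symbols and 1 assembly factor lower, by the shift itself. It moved the median of the members to -0.38 and those of the N and Q modules and the ND1, ND2, ND4 and ND5 parts to -0.38, -0.51, -0.30, -0.25, -0.32 and -0.38. It reversed Ndufa11 to 0.0012, while 15 members kept their direction and lost their call. Without overlapping or copied genes 23 members, 21 subunit symbols and 2 assembly factors were called, since fewer were counted. Ndufa11 and Ndufa4l2 were among the genes left out there. With older symbols 8 assembly factors were called. Ndufa1, Ndufa13 and Ndufaf2 missed a threshold of 0.01, and centring brought Ndufa11 past 0.05. Depth limits Ndufa4l2, with a base mean of 9.08.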

Other observations

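The lower values of core subunits were set beside expression level and transcript length, which also differed: the core subunits had a median base mean of 9444 and the supernumerary ones of 3222. Their transcripts were longer as well, with a median of 1623 bases against 812. Among subunits with a base mean of at least 3000, the 7 core ones had a median log2 fold change of -0.82 and the 16 supernumerary ones of -0.68. Transcript length was not held alike in this comparison, and no test was made of the difference. By symbol class, the medians were -0.80 for 7 Ndufs genes, -0.82 for 3 Ndufv genes, -0.64 for 10 Ndufb genes, -0.62 for 15 Ndufa symbols and -0.54 for 2 Ndufc genes. The 15 Ndufa symbols include Ndufab1, and also Ndufa4 and Ndufa4l2, which are placed outside complex I. Their median is thus not one of complex I subunits alone.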
